A study of Mus musculus with 8 samples.

Results

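The Sfmbt2 intronic miRNA cluster is a large array of rodent miRNA genes of the families miR-297, miR-466, miR-467 and miR-669. Its members were taken by name, as the rows of the miRNA table whose mouse (mmu-) identifier holds one of these 4 family numbers and an arm. The rule found 34 of the 671 rows named mmu-, in a table of 1600 rows, with 4 members of miR-297, 12 of miR-466, 9 of miR-467 and 9 of miR-669. No measured value entered the rule.

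The 4 cell populations came from the bone marrow of wild-type female C57BL/6 mice of 8-10 weeks, without any treatment. All were live B220+ cells. The IgM- cells were split by CD43 into pro-B (CD43+) and pre-B (CD43-) cells, and among the IgM+CD43- cells those with high B220 were taken as mature and the rest as immature B cells. These surface markers alone defined a population. For each stage 1 small RNA library and 1 rRNA-depleted RNA library were sequenced, and the cells of 3 mice were pooled. Whether both libraries of a stage came from the same pool of cells is not stated in the sources used here. The 8 libraries thus held no replicates, so no difference below has a replicate check and no p-value is given.

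Sfmbt2 encodes a Polycomb group protein with MBT domains, and its gene is imprinted and expressed from the paternal copy in early embryos and extraembryonic tissue of the mouse. One of its introns carries the miRNA array, which arose by repeated duplication in rodents, and the miRNAs are cut from the primary transcript as hairpins. Each hairpin can give a mature miRNA from its 5p arm and from its 3p arm, and the seed, which is read from the bases just after the 5′ end, does most of the pairing with a target mRNA.

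The sequences of the members with the most tags are shown because several of them cannot be told apart by a short read. They are given 5′ to 3′ as deposited, with T for U and the seed (bases 2 to 8) in capitals. In the miR-467 family, the 5p members that led the cluster were near copies of each other:
miR-467a-5p: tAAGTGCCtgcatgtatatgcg
miR-467b-5p: gTAAGTGCctgcatgtatatg
miR-467c-5p: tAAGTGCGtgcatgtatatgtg
miR-467d-5p: tAAGTGCGcgcatgtatatgcg
In the miR-466 family, 3p members with the same letters were listed under several names:
miR-466a-3p and miR-466e-3p: tATACATAcacgcacacataaga
miR-466b-3p, miR-466c-3p and miR-466p-3p: aTACATACacgcacacataaga
miR-466d-3p: tATACATAcacgcacacatag
miR-466f-3p: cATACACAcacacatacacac
The miR-669 members with the most tags had other seeds, and 2 names shared 1 sequence on either arm:
miR-669c-5p: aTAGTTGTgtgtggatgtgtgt
miR-669a-3p and miR-669o-3p: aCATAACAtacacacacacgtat
miR-669a-5p and miR-669p-5p: aGTTGTGTgtgcatgttcatgtct
The miR-297 3p members were a single sequence, with the seed of miR-466a-3p:
miR-297a-3p, miR-297b-3p and miR-297c-3p: tATACATAcacacatacccata
The rows of miR-466i and miR-466h are shown for their long repeats of 2 letters:
miR-466i-5p: tGTGTGTGtgtgtgtgtgtg
miR-466i-3p: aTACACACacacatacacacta
miR-466h-3p: tACGCACGcacacacacac

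The 34 members had 27 distinct sequences of 19 to 24 bases and 20 distinct seeds. Counted from the 5′ end, miR-467a-5p and miR-467c-5p differed by C8G and C21T, and miR-467a-5p and miR-467d-5p by C8G and T9C, so position 8 changed the seed. The sequence of miR-467b-5p shared 20 bases with miR-467a-5p, but its start lies 1 base earlier, which also moved the seed. The letters AAGTGC stood at bases 2 to 7 in 3 members (miR-467a-5p, miR-467c-5p and miR-467d-5p) and in 1 other mmu- row, miR-350-5p. The same letters are part of the seeds of the miR-290 cluster of embryonic stem cells, but none of the 9 names searched for that cluster was listed in the table. Repeats of TG and CA marked both arms. On the strand of the miRNA, TGTGTG occurred in 7 of 13 members of the 5p arm and in 1.10% of the other mmu- rows, and ACACAC in 14 of 21 members of the 3p arm and in 0.785% of the other mmu- rows. The median GC content was 36.4% in members and 50% in the other mmu- rows.

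The RefSeq gene table (GRCm38.p6) placed 72 miRNA genes inside Sfmbt2 on chromosome 2, all of them of these 4 families: 5 of miR-297, 24 of miR-466, 14 of miR-467 and 29 of miR-669. A further 10 genes of the families lay elsewhere. Inside the gene the order miR-467, miR-466, miR-669 occurred 12 times, and 9 of these units followed each other without a break. Some hairpins were present in many copies, with 10 genes for miR-467a, 8 for miR-466b and 12 for miR-669a. The hairpin names of all members occurred inside Sfmbt2, except that of miR-466i, whose gene is on chromosome 13. The miR-466f family had 1 further copy on chromosome 13. The submitters' notes name an older build (mm9), so no coordinates are given.

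**Figure D1:**
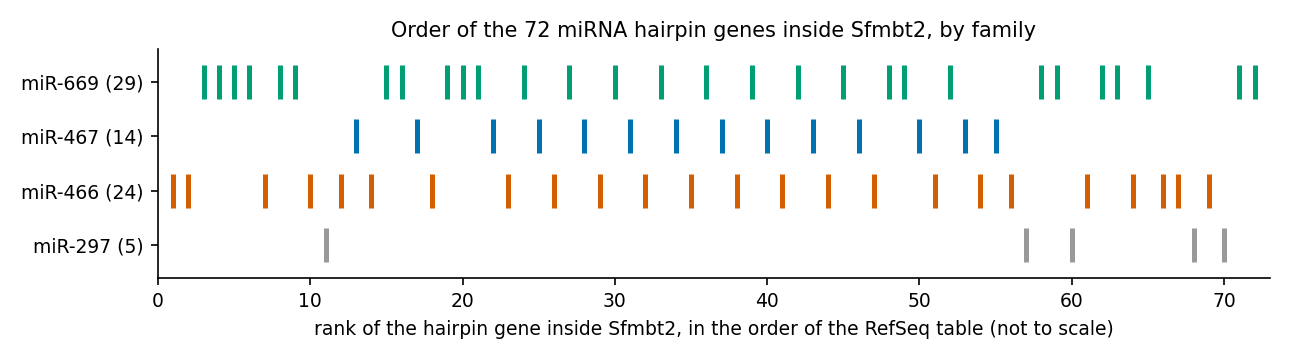
Order of the 72 miRNA genes inside Sfmbt2 in the RefSeq table, by family, with 1 tick for each gene. The x axis is the rank of the gene and not a distance. The regular middle stretch holds the 9 unbroken units of miR-467, miR-466 and miR-669, while miR-297 has 5 genes outside it.

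These copies bear on every count. Of the 34 rows, 16 formed 6 sets with the same counts in all 4 libraries, and 24 sets of rows were left after each was counted once. The rows of 3 sets shared 1 sequence, and those of the other 3 held 2 sequences that overlap in 18 or more bases. From the equal counts it is inferred that a tag was listed in full in every row it fits, which the sources used here do not state. Among the rows with 10 tags or more over the 4 libraries, 45.8% of the members had counts equal to those of another row, against 2.36% of the other mmu- rows. Sums are therefore given over the rows as listed, with identical rows counted once, and as a lower limit that takes only the highest row of each of 17 sets sharing 18 or more bases. Which hairpin copy a tag came from cannot be read from these counts.

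The tags of all mmu- rows, the total to which values in CPM (counts per 1000000 tags) refer, numbered 768752 (pro-B), 1444396 (pre-B), 2106537 (immature) and 1060387 (mature). In the same order 3 tags, which is what a count of 0 allows, were worth 3.9, 2.08, 1.42 and 2.83 CPM. Brackets and ranges below are exact 95% intervals that cover counting error only, since the reads carried no molecular identifiers. For sums over the rows as listed and their folds these intervals are too narrow, where a tag listed in several rows is counted more than once. The pro-B and mature B mRNA libraries bore their stage labels. The summed pro-B markers (Kit, Il7r, Dntt, Igll1, Vpreb1, Spn) stood at 2321 CPM in pro-B and at 44.7 to 179 elsewhere. The mature B markers Fcer2a and Ighd stood at 421 and 1892 CPM in mature B, with Fcer2a at 0 and Ighd at 54.1 to 107 elsewhere. The pre-B markers Rag1, Rag2, Il2ra and Vpreb3 stood at 1278 CPM in pro-B and at 1066 CPM in pre-B cells, so they did not set these stages apart. The immature B markers Ighm, Igkc, Ms4a1 and Cd93 summed to 4337, 7530, 9504 and 5087 CPM from pro-B to mature B. Of them Cd93 was highest in pro-B (429 CPM) and the others in immature B, where Ighm stood at 7816 CPM, against 7147 in pre-B.

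The cluster was detected at every stage and was lowest in mature B cells. The members summed to 1351 tags in pro-B, 1445 in pre-B, 1533 in immature B and 90 in mature B cells. This was 1757 CPM (1665 to 1854) in pro-B, 1000.4 (949 to 1053) in pre-B, 728 (692 to 765) in immature B and 84.9 (68.2 to 104) in mature B cells. Each stage was below the one before it, and the intervals did not overlap. With identical rows counted once the levels were 986, 656, 455 and 73.6 CPM. The lower limits were 696 (638 to 757), 437 (403 to 472), 313 (289 to 338) and 62.2 CPM (48.1 to 79.2), also without overlap. The order of the stages was the same in all of these sums. In bulk libraries, fewer cells that carry these miRNAs and less of them in each cell cannot be told apart.

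**Figure D2:**
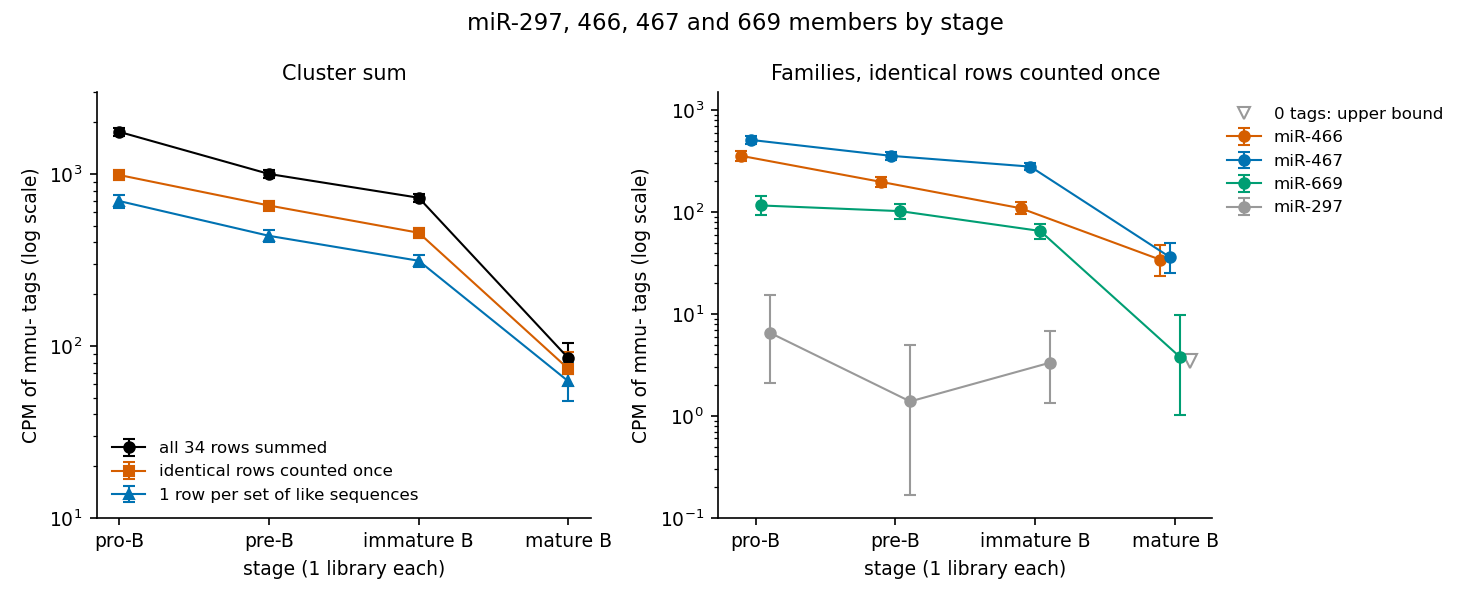
Level of the cluster (left) and of its families with identical rows counted once (right) in CPM of mmu- tags, on log axes, in the 1 small RNA library of each stage. Bars are exact Poisson 95% intervals, and the open triangle is the upper bound for 0 tags of miR-297 in mature B cells. The cluster sum runs from 1757 CPM in pro-B to 84.9 CPM in mature B cells.

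The number of members above 0 was 28 in pro-B, 26 in pre-B, 30 in immature B and 15 in mature B cells. Brought to the depth of the pro-B library, 28, 24.9, 28.3 and 14.6 members would be expected above 0, so mature B cells had the fewest members at equal depth too. Of all mmu- rows 542, 526, 549 and 491 were above 0. With at least 5 tags, 22, 19, 27 and 7 members were present. In all, 15 members were above 0 in every library, 6 in only 1 library and 19 were at 0 in mature B cells. Most members were sparse: 10 had fewer than 10 tags over the 4 libraries and 12 had 100 or more, and the highest, miR-467a-5p, ranked 149 among the mmu- rows by tags.

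The families kept their order with identical rows counted once, a count that still holds both miR-467a-5p and miR-467b-5p. In pro-B cells miR-467b-5p gave 158 of the 391 tags of miR-467, against 273 tags of miR-466. In pre-B cells it gave 237 of 513, against 285. The lead of miR-467 at these stages thus rested on counting both rows. In CPM, miR-467 stood at 509, 355, 278 and 35.8 from pro-B to mature B cells and miR-466 at 355, 197, 109 and 33.9. The miR-669 family stood at 116, 102, 65.0 and 3.77 CPM. The miR-297 family had few tags, with 5 in pro-B, 2 in pre-B, 7 in immature B and 0 in mature B cells. Over the rows as listed, miR-466 led in pro-B with 1063 CPM, against 524 for miR-467 and 164 for miR-669, with 5 of its rows holding the same counts. In mature B cells miR-466 and miR-467 did not differ beyond their counting intervals (33.9, 23.8 to 47.0, and 35.8, 25.4 to 49.2).

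The families differed in the arm that was recovered. Nearly all tags of miR-467 were of the 5p arm, between 96.9% and 100% per library with identical rows counted once. Tags of miR-466 were mostly of the 3p arm, and its 5p share was 14.3% in pro-B, 8.77% in pre-B, 4.80% in immature B and 30.6% (16.3 to 48.1) in mature B cells. Of its 5p tags, 35 of 39, 25 of 25, 5 of 11 and 11 of 11 were those of miR-466i-5p. The miR-669 family gave both arms, with a 5p share of 64.0%, 76.9% and 66.4% in the first 3 stages. In mature B cells it had 0 tags of the 5p arm and 4 of the 3p arm, which leaves the share between 0 and 60.2%. For the whole cluster the 5p share was 63.3%, 68.7%, 71.0% and 62.8% with identical rows counted once, and 36.1%, 46.4%, 45.5% and 54.4% over the rows as listed. The arm in the majority thus depended, except in mature B cells, on how identical rows were counted.

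The single members are described by family, with tags in the order of development from pro-B to mature B. The members miR-467a-5p and miR-467b-5p had 167, 237, 247 and 10 tags and 158, 237, 247 and 10 tags. In CPM miR-467a-5p stood at 217, 164, 117 and 9.43, each stage below the one before. The miR-467c-5p row, which differs from it at positions 8 and 21, had 14, 26, 40 and 10 tags, and its CPM of 18.2, 18, 19 and 9.43 was nearly level up to immature B cells. The miR-467d-5p row had 35, 10, 38 and 8 tags, with its lowest levels in pre-B (6.92 CPM) and mature B cells (7.54 CPM). The 3p rows of miR-467a and miR-467d had 9 tags in pro-B, 0 in pre-B, 7 in immature B and 0 in mature B cells.

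The 5 rows miR-466a-3p, miR-466b-3p, miR-466c-3p, miR-466e-3p and miR-466p-3p had 111 tags in pre-B, 125 in immature B and 2 in mature B cells each. Their levels were 177, 76.8, 59.3 and 1.89 CPM, the widest relative span among the members above 0 in every library. The related miR-466d-3p had 54, 49, 38 and 4 tags and miR-466f-3p 31, 55, 23 and 5 tags. Both had their fewest tags in mature B cells. The miR-466h-3p row had 9, 21, 24 and 14 tags, or 11.7, 14.5, 11.4 and 13.2 CPM, and its intervals overlapped at all stages. The rows of miR-466i, whose hairpin lies on another chromosome, had 35, 25, 5 and 11 tags (5p) and 4, 24, 5 and 0 tags (3p).

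In the miR-669 family, miR-669c-5p had 48, 88, 74 and 0 tags. Its 0 tags in mature B cells (2.83 CPM as 3 tags, with an interval up to 3.48) stood against 35.1 to 62.4 CPM in the other stages. The 3p sequence of miR-669a and miR-669o had 29, 30, 37 and 4 tags, and the 5p sequence of miR-669a and miR-669p had 8, 20, 16 and 0 tags. The 3p sequence of miR-297 had 0, 2, 7 and 0 tags and miR-297b-5p had 5 tags, all in pro-B cells. By tags the members did not share a peak stage, but tags also follow library depth. In CPM miR-467a-5p, miR-467b-5p, miR-467d-5p, miR-466d-3p, miR-466f-3p, miR-466i-5p, miR-669c-5p, miR-669a-3p and the equal rows of miR-466 were highest in pro-B cells. The rows miR-466h-3p, miR-466i-3p and miR-669a-5p were highest in pre-B and miR-467c-5p in immature B cells. Several of these peaks lay within counting error. All miR-669 and miR-297 sequences were at 4 tags or fewer in mature B cells, though those of miR-297 had at most 7 tags in any library.

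**Figure D3:**
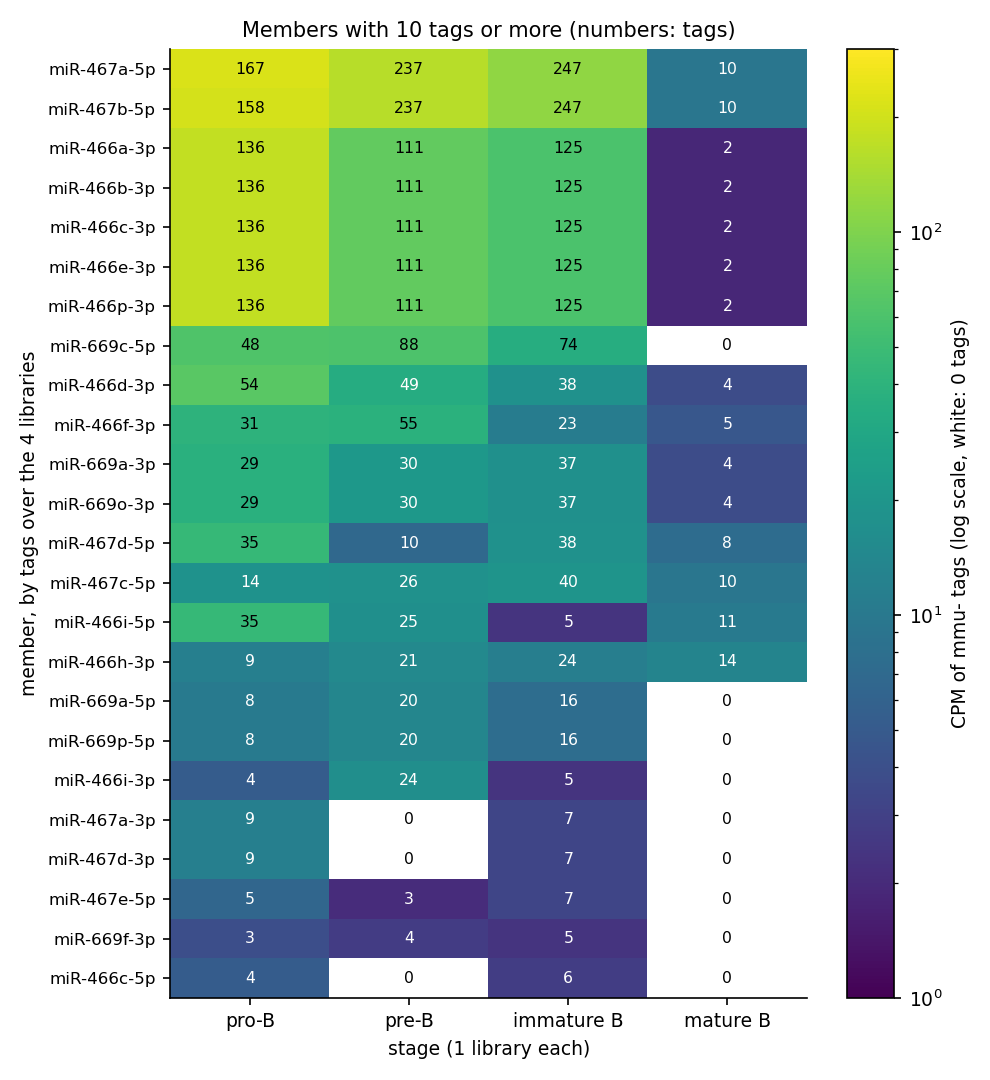
Members with 10 tags or more over the 4 libraries, by stage. Colour is the level in CPM of mmu- tags on a log scale, white is 0 tags, and the printed numbers are tags. Mature B cells hold 0 to 14 tags per member, while miR-466h-3p keeps a similar level in all 4 libraries.

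In the following comparisons a member was called higher or lower at a 2-fold difference in CPM or more, among rows with at least 10 tags in 1 of the 2 libraries and with 0 tags set to 3 tags. A member that passes through its higher library alone is more likely to be called, so these counts are descriptions. The median of all mmu- rows that passed was itself shifted, by -0.73 on the log2 scale for pre-B against pro-B, -0.17 for immature B against pre-B, 0.05 for mature B against immature B and -1.14 for mature B against pro-B.

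From pro-B to pre-B cells the cluster sum was 1.76-fold lower (1.63 to 1.89), and 1.5-fold lower (1.37 to 1.66) with identical rows counted once. Of 19 members that passed, 8 were lower and 1 was higher, where 41.1% of all mmu- rows that passed were lower and 6.46% higher. The members' median log2 difference of -0.86 lay close to the -0.73 of all rows. The lower ones were the 5 equal rows of miR-466 (2.30-fold, 1.78 to 2.99), miR-466d-3p, miR-466i-5p and miR-467d-5p (6.58-fold, 3.19 to 14.9), and the higher one was miR-466i-3p (3.19-fold, 1.10 to 12.7). With TMM factors and with DESeq2 size factors, which moved the median of all rows to -0.14 and -0.09, the cluster sum differed by -0.23 and -0.17 on the log2 scale, 1 member was lower under each, and 3 were higher with size factors.

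From pre-B to immature B cells the cluster sum was 1.37-fold lower (1.28 to 1.48). Of 19 members that passed 3 were lower, where 17.6% of all mmu- rows were, and 1 was higher, where 10.8% were. The lower ones were miR-466f-3p (3.49-fold, 2.11 to 5.95), miR-466i-5p (7.29-fold, 2.74 to 24.4) and miR-466i-3p (7.0-fold, 2.62 to 23.5). The higher one was miR-467d-5p (2.61-fold, 1.27 to 5.86). The members' median was -0.37 on the log2 scale and that of all rows -0.17.

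From immature to mature B cells the cluster sum was 8.57-fold lower (6.93 to 10.7), 6.19-fold (4.91 to 7.90) with identical rows counted once and 5.03-fold (3.9 to 6.58) in the lower limits. This was the widest gap between neighbouring stages. Of 18 members that passed, 16 were lower, where 27.8% of all mmu- rows that passed were lower, and 1 was higher, where 31.9% were higher. Counted once, 10 of 12 sets were lower and 1 was higher. The members' median was -2.24 on the log2 scale, or -3.57 with 0.5 added to every count in place of 3 tags for 0, and that of all rows was 0.05.

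Among these, the equal rows of miR-466 were 31.5-fold lower (8.53 to 263, on 2 tags in mature B cells) and miR-467a-5p was 12.4-fold lower (6.65 to 26.3). The miR-669c-5p row was 12.4-fold lower with its 0 tags set to 3, and its interval ran from 9.85-fold upward. The miR-467c-5p row was 2.01-fold lower, with an interval of 0.990 to 4.52 that spans equal levels. The member called higher was miR-466i-5p (4.37-fold, 1.40 to 16, from 5 to 11 tags), and miR-466h-3p was neither (1.16-fold higher, 0.554 to 2.33). By family and with identical rows counted once, miR-669 was 17.2-fold lower (6.58 to 64.2), miR-467 7.76-fold (5.59 to 11.1) and miR-466 3.20-fold (2.25 to 4.69). The interval of miR-466 did not overlap those of miR-467 and miR-669. That of miR-467 is too narrow where miR-467a-5p and miR-467b-5p list the same tags. Without counting rows once, miR-466 was 8.34-fold lower (6.15 to 11.6). Of its 36 tags in mature B cells, counted once, 14 were of miR-466h-3p and 11 of miR-466i-5p, whose hairpin lies outside Sfmbt2. The smaller fold of miR-466 thus rests largely on these rows.

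From pro-B to mature B cells the cluster sum was 20.7-fold lower (16.7 to 25.9), 13.4-fold (10.6 to 17.1) with identical rows counted once and 11.2-fold (8.65 to 14.7) in the lower limits. On the log2 scale the sum as listed differed by -4.37, by -3.75 with TMM factors and by -3.49 with DESeq2 size factors. Without miR-466i, whose hairpin lies outside Sfmbt2, it was 22.9-fold lower (18.2 to 29.1). Of 16 members that passed, 14 were lower and 0 higher, where 52.7% and 11.2% of all mmu- rows were. The other members that passed were miR-466h-3p and miR-467c-5p. The members' median was -4.33 on the log2 scale, against -1.14 for all rows, and with TMM factors the same medians were -3.71 and -0.52. At or below -4.33, the members' own median, stood 11 of the 367 other rows that passed (3.0%). That 8 of the 16 members stood there follows from the use of their median, and the 5 equal rows of miR-466 were among them. With a run of 10 or more bases of TG or CA repeats, members stood between -3.32 and 0.17, the others between -6.55 and -0.95. Of the members that passed, the former were miR-466i-5p, miR-466h-3p, miR-466f-3p and the single sequence of miR-669a-3p and miR-669o-3p. The ranges overlapped, and the rows at -6.55 were the equal rows of miR-466. This split was not planned.

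**Figure D4:**
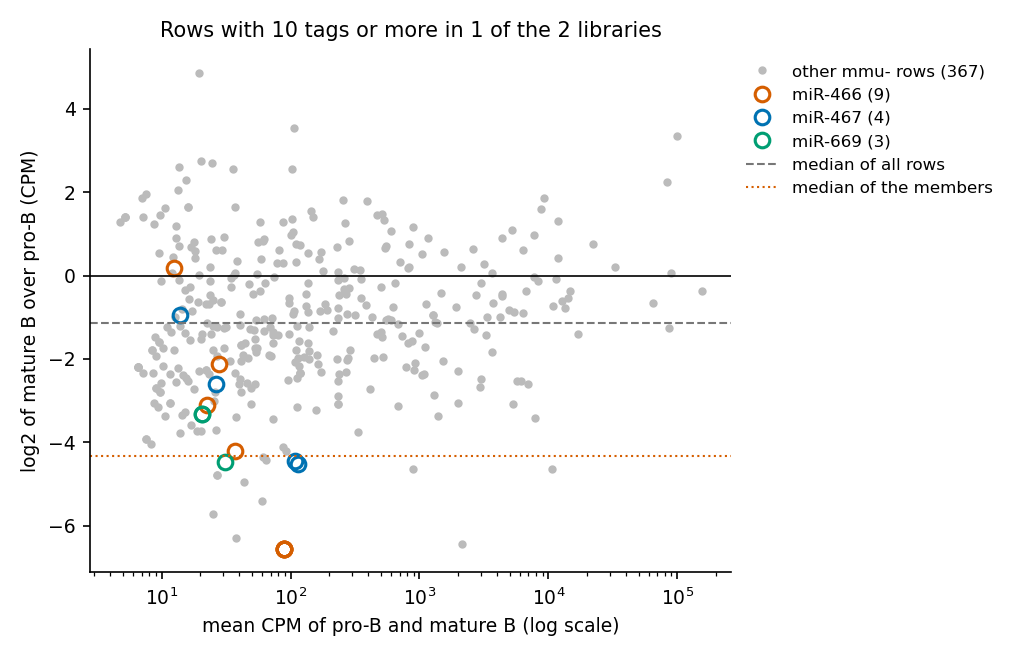
Difference between mature B and pro-B cells (log2 of the CPM ratio, 0 tags set to 3) against the mean level of the 2 libraries on a log axis, for the mmu- rows with 10 tags or more in 1 of them. Coloured rings are members by family, and the rings of the 5 equal miR-466 rows lie on each other. The dashed and dotted lines mark the medians of all rows (-1.14) and of the members (-4.33).

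The levels of miR-17-92 and Dlk1-Dio3 were set beside it. The miR-17-92 cluster, with 11 rows, was far more abundant and stood between 47422 and 81909 CPM at all stages, 1.58-fold lower in mature B than in pro-B cells (1.57 to 1.60). The Dlk1-Dio3 cluster, an imprinted array as well, with 24 rows, stood at 982, 88.6, 55.5 and 504 CPM. From pro-B to pre-B cells it was 11.1-fold lower (9.18 to 13.5) and from immature to mature B cells 9.07-fold higher (7.41 to 11.2). By rows, 5 of the 11 of miR-17-92 were lower and 0 higher in mature B than in immature B cells (median log2 difference -0.95), and 6 were lower and 0 higher than in pro-B cells (median -1.32). Of the 3 cluster sums, that of Sfmbt2 was the one with its lowest level in mature B cells.

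**Figure D5:**
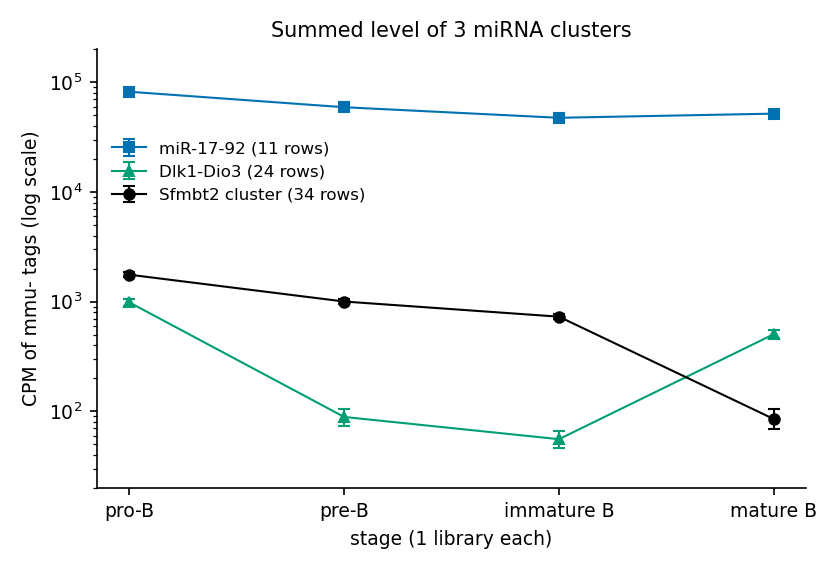
Summed levels of 3 miRNA clusters in CPM of mmu- tags on a log axis, in the 1 small RNA library of each stage, with exact Poisson 95% intervals. The Sfmbt2 cluster is lowest in mature B cells at 84.9 CPM, where the Dlk1-Dio3 cluster stands at 504 CPM.

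The host gene was close to the limit of detection. Sfmbt2 (ENSMUSG00000061186) had 4 estimated counts in pro-B cells and 0 at the 3 later stages, with FPKM values of 0.09, 0, 0 and 0. In pro-B cells this was 4.61 CPM of the mRNA counts (1.26 to 11.8). A count of 0 allowed up to 12.5 CPM in pre-B, 13.4 in immature B and 3.53 in mature B cells, so no difference of Sfmbt2 between stages was detectable at this depth, least of all in pre-B and immature B cells, whose mRNA libraries held 240231 and 223495 counts against 867920 and 849350. The 2 lncRNA rows named for Sfmbt2 were at 0 in all libraries, and 0 circRNAs were listed for it. Tags of the cluster were thus counted at 3 stages where the host mRNA was listed at 0. The next protein-coding genes on either side in RefSeq were measured too. Prkcq, a protein kinase C, had 31, 2, 0 and 0 counts (35.7, 8.33, 0 and 0 CPM). Pfkfb3, a regulator of glycolysis, had 166, 21, 22 and 35 counts (191, 87.4, 98.4 and 41.2 CPM). Rbm17, a splicing factor, had 76, 32, 7 and 49 counts (87.6, 133, 31.3 and 57.7 CPM), and Kin, Itih2 and Itih5 had at most 23 counts in any library.

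Sfmbt2 is one of 18 genes of Polycomb complexes and MBT-domain proteins that were listed. By the same fold rule on counts, 10 of 14 that passed were lower in pre-B cells than at the pro-B stage, where 31.4% of all mRNAs were, and 0 were higher, where 14.8% were. From pre-B to immature B cells 1 of 8 was lower (20.2% of all) and 3 were higher (18.9%). From immature to mature B cells 5 of 13 were higher (26.7% of all) and 0 lower (18.1%). Of these 5, all but Phc3 had only 2 to 8 counts in immature B cells. Ezh2, the methyltransferase of Polycomb complex 2, had 40, 8 and 32 counts after the pro-B stage, and its FPKM was 25.2, 5.98, 1.34 and 2.45. The close relative Sfmbt1 had FPKM values of 2.58, 0.33, 0.1 and 1.98, above those of Sfmbt2 in every library. Yy1, a DNA-binding partner of Sfmbt proteins, had 288, 59, 53 and 237 counts (332, 246, 237 and 279 CPM) and was not called in any comparison. Between pro-B and mature B cells Scml4 alone was higher (13.2% of all) and Ezh2 and Ring1 were lower (24.2%).

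Of the 10 listed genes of miRNA maturation, 10, 9, 8 and 10 were above 0 from pro-B to mature B cells. In mature B against pro-B cells 1 of 10 was lower (Prkra, 24.2% of all mRNAs) and 1 was higher (Ago3, 13.2%). Dicer1, which cuts the hairpin, had 130, 15, 21 and 185 counts (150, 62.4, 94.0 and 218 CPM). Drosha, which frees the hairpin from the transcript, had 52, 10, 4 and 26 counts (59.9, 41.6, 17.9 and 30.6 CPM). Ago2, which holds the mature miRNA, had 402, 36, 46 and 558 counts (463, 150, 206 and 657 CPM). From pro-B to pre-B cells 4 of 10 were lower (31.4% of all mRNAs) and 1 was higher (14.8%). From pre-B to immature B cells 3 of 7 were lower (20.2%) and 1 higher (18.9%), and from immature to mature B cells 3 of 9 were higher (26.7%) and 0 lower (18.1%).

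Markers of other cell types also differed between the libraries. The 6 genes of T and NK cells summed to 178 counts in pro-B, 0 in pre-B, 0 in immature B and 5 in mature B cells, with Cd3e at 0 in pro-B cells. The 3 genes of plasmacytoid dendritic cells summed to 701, 150, 198 and 191 CPM, and Siglech had 105, 0, 4 and 0 counts. The 6 myeloid genes summed to between 790 and 1049 CPM with Csf1r at 0 throughout, and the 4 erythroid genes to between 25.9 and 141 CPM. In the small RNA libraries the myeloid miR-223-3p stood at 308, 152, 122 and 122 CPM, and the erythroid miR-451a at 157, 47.1, 18 and 67.9 CPM. The erythroid miR-144-3p stood at 116, 244, 23.3 and 43.4 CPM, highest in pre-B cells. The marker genes of T and NK cells and of plasmacytoid dendritic cells and miR-223-3p were thus highest in pro-B cells, like the cluster, and their part in its level was not tested.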

How the data were processed

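The authors removed other small RNAs, searched the clean tags against miRBase (release 22) and deposited tag counts per miRNA beside TPM values, which are tags over all clean tags with 0.01 in place of 0. The mRNA table, as deposited by the authors, holds estimated counts from StringTie 1.3.4 and FPKM values, after fastp 0.18.0, rRNA removal with Bowtie2 2.2.8 and mapping with HISAT2 2.1.0. For small RNA the submitters' notes name Bowtie 0.12.2 and mm9.

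Tags were scaled to the mmu- total of the library. Levels carry exact Poisson intervals, ratios exact conditional binomial intervals and shares Clopper-Pearson intervals, all at 95%. They treat every listed tag as a separate count, also where the rows as listed repeat a tag. A fold against 0 tags is a bound against 3 tags per library. With 1 library per stage no test was run, and the fold rule was tried on simulated data. Named members were the 10 with the most tags, the 2 with the most tags per family and arm, and the 2 called with the largest fold per comparison and direction. miR-466h-3p, miR-467c-5p and the sets of identical rows were described after their values were seen. The members and lists were chosen with earlier results of these data known. Python 3.11.15, scipy 1.17.1, edgeR 4.0.16 and DESeq2 1.42.0 (scaling factors only) were used. RefSeq tables gave gene order, and sequences are those deposited. The sum of the mature B markers is not reported here.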

Additional observations from a re-analysis of the deposited data

Results flagged for a closer look

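Tags were also found in rows of the same 4 number families that the naming rule does not take, above the 3 tags that a count of 0 allows. There are no control samples for these rows, and they enter none of the sums above. Among mouse rows without an arm in the name, mmu-miR-466g had 28 tags over the 4 libraries (8, 14, 6 and 0 from pro-B to mature B cells) and mmu-miR-466k had 4, all in immature B cells. Among rows named after miRNAs of other species, miR-466-y had 100 tags (28, 33, 29 and 10) and miR-466-x had 66 (53, 10, 1 and 2). The rows miR-467-x, miR-669-x, miR-669-y, miR-466-z and miR-467-z had 19, 18, 18, 15 and 5 tags. The 7 rows named after other species summed to 146, 38.1, 28.5 and 13.2 CPM of the mmu- total, with the highest level in pro-B and the lowest in mature B cells, as in the cluster itself.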

How the results depend on the processing

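No paired analysis was possible because each stage had 1 library of a type and shared only the number 1, and no library was left out of a comparison for the same reason. Counting rows with the same counts or sequence once, and the lower limits, were alternatives chosen after seeing the data. Values follow the order of development, or that of the comparisons pre-B against pro-B, immature B against pre-B, mature B against immature B and mature B against pro-B.

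No fold of the cluster sum changed direction under any alternative. The alternatives for single members changed only the scaling of the libraries, and shifted a ratio by less than 2-fold. A member that differed 2-fold or more could therefore not change direction, and all 260 such alternatives kept it. Of these 260, 232 stayed past 2-fold, with equal rows and several comparisons of a member counted apart. The level of the cluster moved with the total it is scaled to. Scaled to all miRNA rows it was 1458, 864 and 636 in the first 3 stages, scaled to the clean tags 1340, 804, 587 and 64.7, and scaled without the top 5 rows of any library 3810, 2632, 2131 and 265. With TMM factors it was 1266, 1083 and 843 in the first 3 stages, and with DESeq2 size factors 1163 in pro-B and 876 in immature B cells. With the rows named after other species it was 1903 in pro-B cells. Counted once it was 986, 656 and 455, and the lower limits were 696, 437, 313 and 62.2.

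The log2 difference of the cluster sum from pro-B to pre-B cells was -0.23 (TMM), -0.17 (size factors), -0.53 (without the top rows), -0.59 (counted once) and -0.67 (lower limit). From pre-B to immature B cells it was -0.24 (size factors) and -0.30 (without the top rows), and from immature to mature B cells -2.63 (counted once) and -2.33 (lower limit). From pro-B to mature B cells it was -3.75 (TMM), -3.49 (size factors), -3.85 (without the top rows), -3.74 (counted once) and -3.48 (lower limit). With 0.5 added to every count, the members' medians for mature B against immature B and against pro-B cells were -3.57 and -4.22.

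Counts of called members moved most for pre-B against pro-B cells, where the lower ones numbered 1 (TMM), 1 (size factors), 2 (without the top rows), 16 (filter of 1 tag) and 4 (counted once), and the higher ones 3 (size factors) and 0 (filter of 30 tags). For immature B against pre-B cells, 4 (filter of 1 tag) or 3 (with the rows named after other species) were higher, and 1 (filter of 30 tags) or 7 (fold of 1.5) were lower. For mature B against immature B cells, 2 (filter of 1 tag) or 0 (filter of 30 tags) were higher and 10 (counted once) were lower. For mature B against pro-B cells, 1 was higher with size factors, 1 with the filter of 1 tag, and 9 were lower counted once.

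The 5p share of the cluster was 27.1%, 35.9% and 35% in the first 3 stages without miR-467a-5p, and 63.3%, 68.7% and 71.0% counted once. With 5 tags or more, 7 members were present in mature B cells. Sfmbt2 in pro-B cells was 4.61 as CPM. In the mature B library the cluster rests on 90 tags, although the pro-B library was shallower (768752 mmu- tags against 1060387). Depth limits the host mRNA most in pre-B and immature B cells.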

Other observations

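Other miRNAs that lie in introns were set beside their host mRNAs, which were measured in the separate rRNA-depleted libraries of the same stages. The 6 rows from the intron of Mcm7 (miR-25, miR-93 and miR-106b) stood at 12671, 20613, 15011 and 6441 CPM of mmu- tags from pro-B to mature B cells, where Mcm7 itself was listed at FPKM values of 4.22, 0, 1.26 and 0. The miR-342 rows, from an intron of Evl, stood at 4658, 4312, 4759 and 13861 CPM beside FPKM values of 1.56, 0.36, 0.55 and 0.92. The miR-140 rows, from Wwp2, stood at 3377, 4692, 5516 and 7130 CPM, and Wwp2 at FPKM values of 13.3, 2.59, 1.19 and 5.02. The miR-28a rows, from Lpp, stood at 466.99, 219, 307 and 915 CPM beside FPKM values of 3.84, 0.27, 0.47 and 3.88. The miR-151 rows, from Ptk2, stood at 2223, 528, 412.05 and 2503 CPM beside FPKM values of 0.42, 0.08, 0.33 and 0.74. Of these 5 hosts, Mcm7 alone was listed at 0 at any stage, in pre-B and mature B cells. For Lpp both the miRNAs and the host were higher in pro-B and mature B cells than at the stages between. This held for the CPM of Lpp too (217, 37.5, 107 and 212 of the mRNA counts). For Ptk2 the same was seen in FPKM but not in CPM (11.5, 8.33, 35.8 and 13.0, on 2 to 11 counts). The FPKM of Evl and Wwp2 was also higher in pro-B and mature B cells than between. Their CPM was instead lowest in mature B cells (14.5, 12.9, 19.3 and 11.2 for Evl and 198, 142, 121 and 112 for Wwp2). Fewer mRNAs in all reached an FPKM of 1 in pre-B and immature B cells (4110 and 4174) than in pro-B and mature B cells (8656 and 8013).

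The mmu- row miR-350-5p (aAAGTGCAtgcgctttggg, seed in capitals), which has AAGTGC at bases 2 to 7 like miR-467a-5p, had 58, 109, 181 and 78 tags. Its level was 75.4, 75.5, 85.9 and 73.6 CPM, whereas miR-467a-5p ran from 217 to 9.43 CPM.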
